A study of Mus musculus with 4 samples.

Results

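The miRNAs described here are the mature products of the miR-193 and miR-365 hairpins of the mouse, which lie together as paralogous clusters on 2 chromosomes. Members were the rows named mmu-miR-193a-3p, mmu-miR-193a-5p, mmu-miR-193b-3p and mmu-miR-365-3p, 4 of the 1907 mature miRNAs counted in each library. They were taken by name, though with earlier results of these data known. Small RNA was sequenced from the livers of C57BL/6 mice aged 15 weeks, in 2 control libraries and 2 libraries from mice given thioacetamide (TAA), a liver toxin that causes fibrosis on repeated dosing. TAA was injected intraperitoneally at 200 mg/kg, 3 times a week for 10 weeks. Control mice are labelled only as controls, with no word on a vehicle injection. The libraries are called biological replicates in the design text, without naming animals, so p-values measure the spread between these libraries.

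A miRNA hairpin is cut to a short duplex, and 1 strand of it, the 5p or the 3p arm, is usually loaded into Argonaute while the other is mostly lost. The loaded strand finds target mRNAs mainly through its seed, bases 2 to 8. The miR-193 family is known as a brake on growth whose targets include cyclin D1 and Mcl1, and miR-365 has been tied to cyclin D1, Bcl2 and interleukin 6. The cluster of miR-193b and miR-365 is best known from brown fat, where it has been linked to adipocyte differentiation and to the repression of muscle genes.

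The mature sequences show which members can share targets and which can be told apart in the reads. They were taken from RefSeq (GRCm38.p6), which held all 4 members, and are written 5′ to 3′ with the seed in capitals.
miR-193a-3p: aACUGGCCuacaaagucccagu
miR-193b-3p: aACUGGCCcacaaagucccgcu
miR-365-3p: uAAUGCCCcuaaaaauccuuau
miR-193a-5p: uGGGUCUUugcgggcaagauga
miR-365-2-5p: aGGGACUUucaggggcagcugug
miR-365-1-5p: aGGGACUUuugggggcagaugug

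miR-193a-3p and miR-193b-3p share the seed ACUGGCC and differ at 3 of 22 bases, U9C, A20G and G21C, counted from the 5′ end of miR-193a-3p. No other name among the 1679 mature miRNAs of that table has this seed, and none but miR-365-3p has AAUGCCC. miR-365-3p is identical from both of its hairpins, so its single row cannot be assigned to a chromosome. The 5p arms of those hairpins, which are not members, do differ, by C10U, A11G and C19A counted from the 5′ end of miR-365-2-5p, within 23 bases that share 1 seed.

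On chromosome 11 of GRCm38, Mir193a occupies chr11:79711969-79712034 and Mir365-2 occupies chr11:79726400-79726511, both on the plus strand with 14365 bases between them. Neither hairpin lies in another annotated gene of RefSeq or GENCODE M21. The chromosome 16 cluster is tighter, with 4238 bases between Mir193b at chr16:13449523-13449601 and Mir365-1 at chr16:13453840-13453926, also on the plus strand. RefSeq places both of these within the span of the long non-coding RNA genes Gm32817 and Gm53058, which start at 13447952, and GENCODE places them opposite the antisense gene Gm15738. The mature miR-193a-3p lies at chr11:79712009-79712030, miR-193a-5p at chr11:79711975-79711996 and miR-193b-3p at chr16:13449570-13449591. miR-365-3p has a copy at chr11:79726467-79726488 and another at chr16:13453895-13453916.

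The miRNA counts of the 4 libraries ranged from 42609845 to 48878003, so 1 CPM (counts-per-million, TMM-scaled) stands for 42.3 to 51.3 counts. Means of a group's 2 libraries are given with their SD (n = 2), and all sequences compared are 22 or 23 bases long. Together the 4 members held 0.0673% (control 1), 0.0587% (control 2), 0.0572% (TAA 1) and 0.0561% (TAA 2) of all miRNA counts.

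The chromosome 11 cluster gave nearly all of the reads that can be assigned to a locus. Of miR-193-3p counts, miR-193a-3p made up 97.3% (95% Wilson interval 97.1% to 97.6%) in control 1 and 97.7% (97.5% to 97.9%) in control 2. Its share was 96.8% (96.6% to 97.1%) in TAA 1 and 97.7% (97.4% to 97.9%) in TAA 2. These intervals cover counting error only. In each library miR-193a-3p was therefore between 30.7 and 42.7 times as abundant as its paralog.

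The 5p arms of miR-365 were as uneven. miR-365-2-5p of chromosome 11 was counted 170 and 143 times in control, 125 and 175 times in TAA-treated liver, against 2, 0, 0 and 0 for miR-365-1-5p of chromosome 16. The chromosome 11 form was thus 98.8% (Wilson interval 95.9% to 99.7%) of miR-365-5p counts in control 1. In the other 3 libraries, 0 of 143, 125 and 175 counts were of the chromosome 16 form. If a count of 0 allows up to 3 counts, its share could reach 2.098%, 2.40% and 1.71%. The Wilson intervals of the chromosome 11 form there are wider and reach down to 97.4%, 97.0% and 97.9%. Summed over both loci, the 5p arms are a rare by-product of miR-365, and the split of miR-365-3p itself between the loci was not measured.

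**Figure D1:**
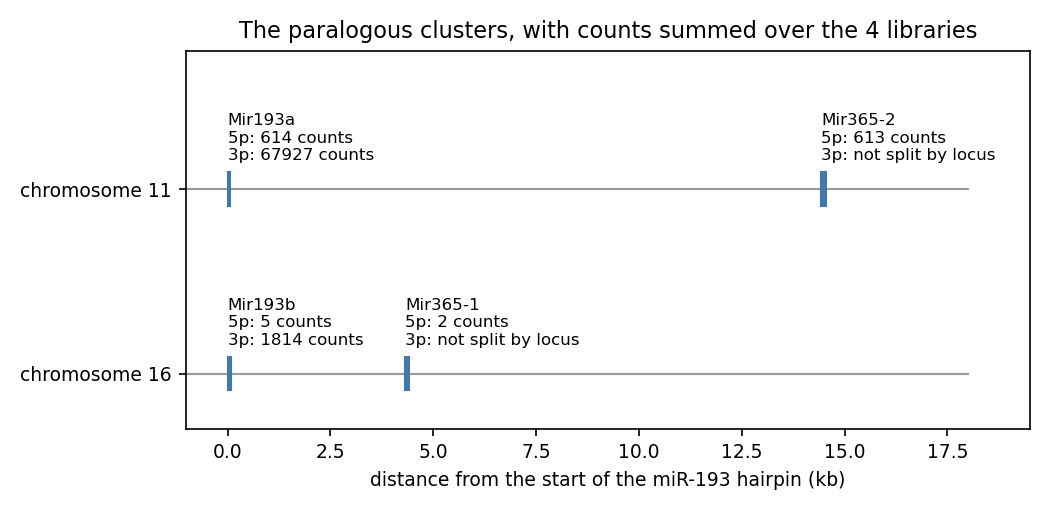
The paralogous clusters drawn to scale, with distance from the start of the miR-193 hairpin in kb on the horizontal axis and 1 line per chromosome; boxes are hairpins and the text gives counts summed over the 4 libraries. miR-193a-3p had 67927 counts against 1814 for miR-193b-3p, and miR-365-2-5p had 613 against 2 for miR-365-1-5p.

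miR-193a-3p was the most abundant member, at rank 79 of all rows by mean CPM. miR-365-3p followed at rank 99, miR-193b-3p at rank 273 and miR-193a-5p at rank 351. Among the arms that are not members, miR-365-2-5p stood at rank 350, and the levels of miR-193a-5p and miR-365-2-5p overlapped, at 2.76 to 3.72 and 2.75 to 4.02 CPM. All other neighbours in this order were separated in every library. miR-193b-5p was counted 2, 0, 0 and 3 times in control 1, control 2, TAA 1 and TAA 2. A count of 0 allows a level of up to 3 counts, or 0.0585 to 0.0709 CPM.

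**Figure D2:**
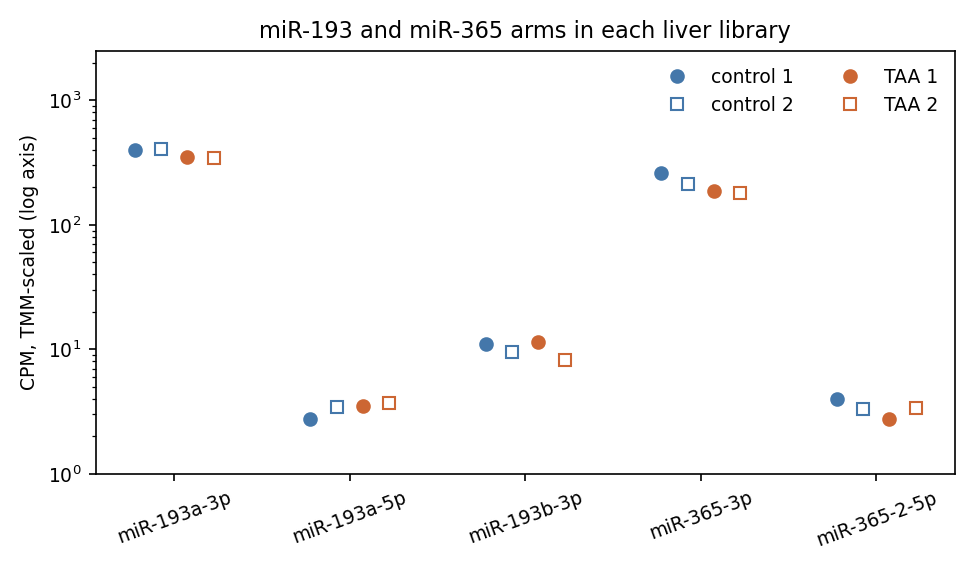
Level of the 4 members and of miR-365-2-5p in each library, as TMM-scaled CPM on a log axis; blue marks are controls, orange marks TAA-treated liver, and each mark is 1 library. miR-193a-3p lies between 343 and 407 CPM and miR-193b-3p between 8.23 and 11.4 CPM.

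The comparison of the design, TAA-treated against control liver, asks which miRNAs change in thioacetamide-induced fibrosis. None of the 4 members passed edgeR's quasi-likelihood test at an adjusted p of 0.05, and 1, miR-365-3p, had an unadjusted p under 0.05, against 25.6% of all tested miRNAs. With upper-quartile scaling factors 1 member passed and 2 had an unadjusted p under 0.05. DESeq2 and limma-voom called 0 of the 4. Over all 644 miRNAs tested, 107 were called, or 16.6%, of which 90 were higher and 17 lower (83 and 32 with upper-quartile scaling factors). With the miRNAs of the imprinted Dlk1-Dio3 locus removed, 14 of 579 miRNAs and 0 members were called. The share of 16.6% thus depends on that locus. The median log2 fold change of the members was -0.14, against -0.0042 for all tested miRNAs. All 4 members passed the filter on low counts.

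Control and TAA libraries were fully separated in 3 of the 4 members, against 55.3% of all tested miRNAs. Both TAA libraries were below both controls in 2 of them, miR-193a-3p and miR-365-3p, and this separation was found in 25.6% of tested miRNAs. Permuting 2 against 2 libraries gives an exact two-sided p of 0.333 at the least, so separation alone cannot pass a threshold of 0.05.

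miR-365-3p showed the largest difference among the members. It measured 263 and 215 CPM in the controls and 186 and 179 CPM in TAA-treated liver. The controls lay apart from each other, with control 1 highest, while the TAA libraries were close together and both lower. Its mean went from 239 ± 34.3 to 182 ± 4.61 CPM. That is a log2 fold change of -0.39 (SE 0.15, 95% interval -0.73 to -0.05, unadjusted p = 0.0293, edgeR adjusted p = 0.138), or 0.763-fold. Among tested miRNAs, 60.6% had a smaller change in size.

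The call on miR-365-3p depended on the scaling. With upper-quartile factors its log2 fold change was -0.55, where the median over all tested miRNAs was -0.17, and it passed (edgeR adjusted p = 0.0272, against a range of 0.0272 to 0.521 over all alternatives). Without control 1 its log2 fold change was -0.24 (adjusted p = 0.521). By library size alone it measured 261 and 198 CPM without TAA, against 192 and 188 CPM with it, so that control 2 and TAA 1 nearly met.

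miR-193a-3p, the leading product of the chromosome 11 cluster, varied least between replicates. It measured 401 and 407 CPM in the controls and 351 and 343 CPM in TAA-treated liver. Both TAA libraries lay below both controls, and within each group the libraries nearly coincided. Its mean was 404 ± 4.13 CPM without TAA and 347 ± 5.40 CPM with it. The fit, which takes its spread partly from other miRNAs, gave a log2 fold change of -0.22 (SE 0.12, interval -0.49 to 0.06, edgeR adjusted p = 0.308), or 0.860-fold. The gap moved with the scaling, to -0.10 by library size alone (398 and 376 CPM against 364 and 360) and to -0.39 with upper-quartile factors (edgeR adjusted p = 0.0976).

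miR-193b-3p, the chromosome 16 paralog with the same seed, measured 11.01 and 9.52 CPM in the controls and 11.4 and 8.23 CPM in TAA-treated liver. The groups overlapped, with the highest and the lowest value both in TAA-treated liver. From counts of 407 to 519 per library, its log2 fold change was -0.06 (SE 0.22, interval -0.57 to 0.45, edgeR adjusted p = 0.906). The sign was positive with library size alone (0.05), with a minimum of 10 CPM (0.01), and without control 1 (0.04) or TAA 2 (0.15). This interval holds differences as large as that of miR-365-3p in either direction, so the data do not show that it stayed level.

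miR-193a-5p, the minor arm of the miR-193a hairpin, was counted 117 and 147 times in control, 159 and 191 times in TAA-treated liver. That is 2.76 and 3.44 CPM against 3.50 and 3.72 CPM, with control 2 just under TAA 1. Its log2 fold change was 0.22 (SE 0.22, interval -0.29 to 0.73, edgeR adjusted p = 0.616). It was 0.06 without control 1, the lowest library, and 0.04 with upper-quartile factors. miR-365-2-5p measured 4.02 CPM in control 1, 3.35 in control 2, 2.75 in TAA 1 and 3.41 in TAA 2, and the groups overlapped. It had a log2 fold change of -0.25 (SE 0.23, edgeR adjusted p = 0.556).

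**Figure D3:**
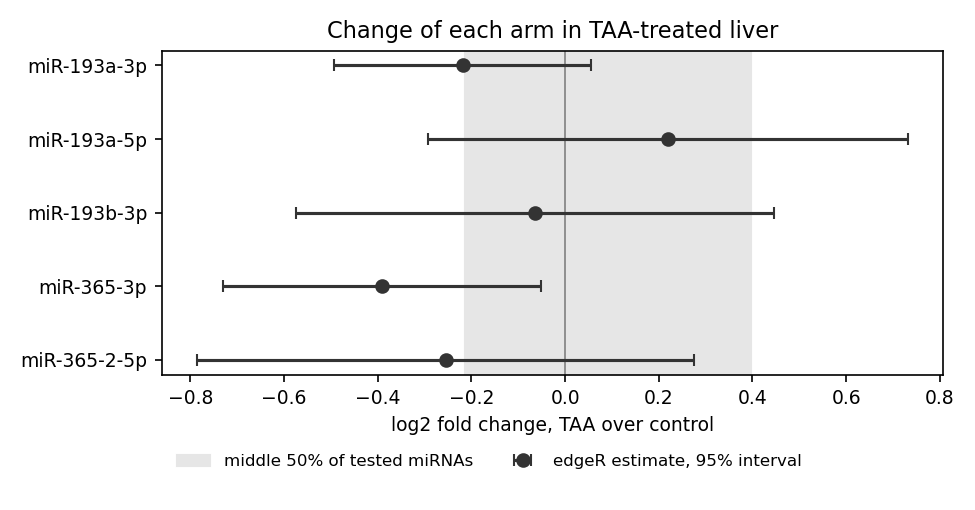
Log2 fold change of each arm in TAA-treated over control liver, with points for the edgeR estimate, bars for its 95% interval and a grey band from the lower to the upper quartile of all tested miRNAs (-0.21 to 0.40). The interval of miR-365-3p, -0.73 to -0.05, lies below 0, and the other 4 intervals include 0.

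Ratios of members within a library do not depend on its scaling. miR-193a-3p was 1.52 times as abundant as miR-365-3p in control 1 and 1.90, 1.89 and 1.92 times in control 2, TAA 1 and TAA 2. Control 1 thus stood apart from the other 3 libraries, which agreed closely, and the difference between group means of miR-365-3p relative to miR-193a-3p rests on that library.

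The paralogs with the common seed kept no fixed ratio between replicates. The log2 ratio of miR-193b-3p to miR-193a-3p was -5.19 in control 1 and -5.42 in control 2, against -4.94 in TAA 1 and -5.38 in TAA 2, so the groups overlapped. The means were -5.30 ± 0.16 (SD, n = 2) and -5.16 ± 0.31, a difference of 0.14 (two-sided exact permutation p = 0.667). Without TAA 1 the difference was -0.08. The summed level of the seed they share was 412 and 416 CPM in the controls and 362 and 352 CPM in TAA-treated liver, and it followed miR-193a-3p.

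The 3p arm dominated the miR-193a hairpin, as it did the miR-193b hairpin and miR-365 summed over both of its loci. The 5p arm made up 0.685% (Wilson interval 0.572% to 0.820%) and 0.838% (0.714% to 0.984%) of miR-193a counts in the controls. In TAA-treated liver it made up 0.987% (0.846% to 1.15%) and 1.07% (0.932% to 1.24%). Both TAA libraries lay above both controls, with the intervals of control 2 and both TAA libraries overlapping. The log2 ratio of 5p to 3p differed by 0.44 (SE 0.20, interval -0.05 to 0.94, limma adjusted p = 0.985) over the 150 hairpins tested. Of those hairpins 0 were called, or 0%, also with a mean-variance trend, and 5 had an unadjusted p under 0.05. For miR-365, summed over both loci, the 5p share was 1.52% (control 1), 1.53% (control 2), 1.46% (TAA 1) and 1.87% (TAA 2). Of miR-193b counts the 5p arm took 2 of 468 in control 1, 0 of 407 in control 2, 0 of 519 in TAA 1 and 3 of 425 in TAA 2.

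**Figure D4:**
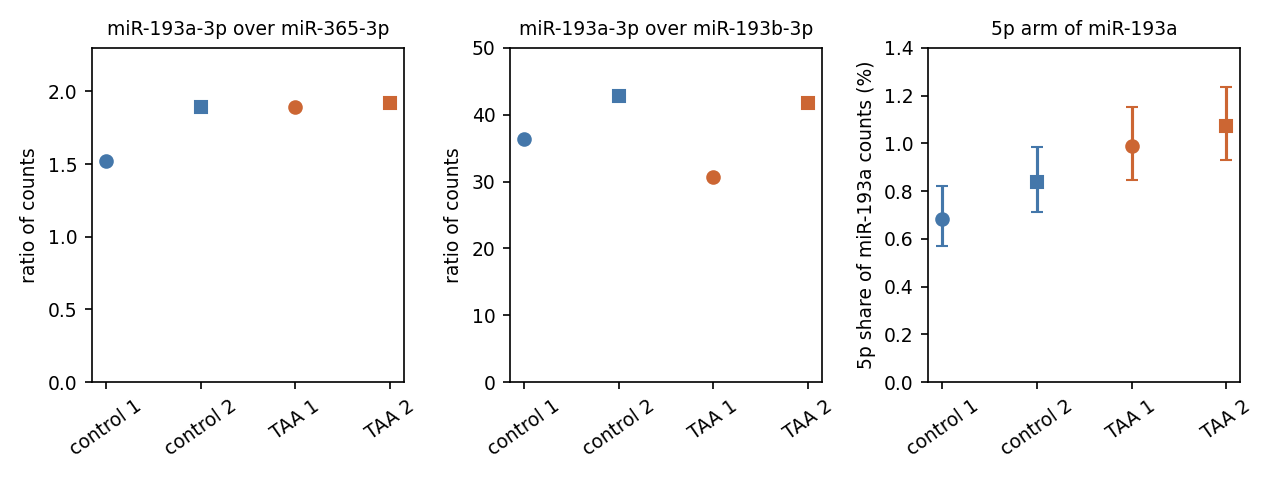
Ratios within each library, with 1 point per library (blue for control, orange for TAA): miR-193a-3p over miR-365-3p counts, miR-193a-3p over miR-193b-3p counts, and the 5p share of miR-193a counts in percent with 95% Wilson intervals. Control 1 has the lowest miR-193a-3p to miR-365-3p ratio, at 1.52, and TAA 1 the lowest miR-193a-3p to miR-193b-3p ratio, at 30.7.

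The miRNAs with the profile nearest to each member were found by the distance between centred log2 CPM over the 4 libraries, among 270 miRNAs with a mean of at least 10 CPM. For miR-193a-3p these were miR-1843b-5p, miR-339-3p and miR-17-5p, at distances of 0.022 to 0.038. miR-193a-5p was nearest to miR-350-5p, miR-301a-3p and miR-335-5p (0.098 to 0.14), and miR-193b-3p to miR-24-3p, miR-1839-3p and miR-100-5p (0.081 to 0.16). miR-365-3p was nearest to let-7c-2-3p, let-7a-1-3p and miR-378a-5p, at 0.059, 0.076 and 0.11. None of these 12 passed the edgeR test, against 16.6% of all tested miRNAs. That largely follows from choosing them for their likeness to members that did not pass. The 4 libraries are too few to read more into a likeness of profiles.

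Of miRNAs tied to brown or beige fat, the setting in which miR-193b and miR-365 are best known, 20 were listed and 18 tested. The list holds both arms of miR-455 and of miR-378a, and miR-133a-3p, which is also listed for muscle. It was not sorted by whether a miRNA promotes or opposes brown fat, so a shared sign says nothing about that tissue. A negative log2 fold change was found in 15 of the 18, with a median of -0.17 under TMM scaling. With that scaling both TAA libraries lay below both controls in 10 of the 18 and above them in 2, against 25.6% and 29.7% of all tested miRNAs. By library size alone the groups overlapped for some of the 10, among them miR-30c-5p and miR-378a-3p. By the edgeR test 2 rose and 2 fell, where 90 and 17 of all 644 tested miRNAs did (16.6% called). miR-455-5p, an arm of a miRNA known from brown adipocyte differentiation, fell from 194 ± 2.50 CPM in control to 132 ± 10.6 CPM (edgeR log2 fold change -0.56, adjusted p = 0.0252). The other arm, miR-455-3p, did not pass (edgeR log2 fold change -0.32, adjusted p = 0.249). miR-203-3p, better known from skin, dropped from 2138 ± 55.7 CPM in control to 1583 ± 56.9 CPM (edgeR log2 fold change -0.43, adjusted p = 0.0248). Those that rose, miR-155-5p (edgeR log2 fold change 0.95, adjusted p = 0.0102) and miR-34a-5p (1.25, adjusted p = 0.00367), are a miRNA of activated immune cells, also counted among the leukocyte miRNAs, and a p53 target. The 3 most abundant, miR-26a-5p, miR-27b-3p and miR-378a-3p, had log2 fold changes of -0.07, -0.15 and -0.22 and did not pass. Muscle miRNAs were scarce, with 1 of 4 listed kept by the filter. miR-133a-3p, the one kept, averaged 4.12 ± 0.85 CPM without TAA and 2.73 ± 0.22 CPM with it and did not pass, and miR-208a-3p had 0 counts in all 4 libraries.

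Markers of liver cell types were measured in the same libraries, which are bulk tissue, so fewer cells of a type and less of a miRNA per cell cannot be told apart. The 9 hepatocyte miRNAs, led by miR-192-5p, had a median log2 fold change of -0.24, close to that of miR-193a-3p. miR-122-5p, which defines the liver among tissues, averaged 19946 ± 2350 CPM without TAA and 17438 ± 88 CPM with it. Under TMM scaling both TAA libraries were below both controls in 8 of the 9, against 25.6% of all tested miRNAs. This separation depended on the scaling. By library size alone the groups overlapped for some of the 8, among them miR-192-5p and miR-22-3p. Over all 644 tested miRNAs the edgeR test called 16.6%, with 90 higher and 17 lower. None of the 9 passed it, and 4 had an unadjusted p under 0.05, also against 25.6%. Their summed level was 536570 and 589390 CPM in the controls and 487120 and 504550 CPM in TAA-treated liver. Their part in the lower miR-193a-3p and miR-365-3p was not tested. Of the 7 leukocyte miRNAs, the most abundant of which was miR-142a-5p, 3 rose (miR-150-5p, miR-155-5p and miR-342-3p), with sums of 1217 and 1808 CPM in the controls and 2501 and 2070 CPM in TAA-treated liver. All 4 erythroid miRNAs rose, among them miR-451a and the most abundant, miR-486a-5p, with sums of 325, 196, 530 and 1926 CPM in control 1, control 2, TAA 1 and TAA 2. Mesenchymal, endothelial and biliary or epithelial lists gave 1 of 5, 0 of 2 and 0 of 5 higher, and 0, 0 and 2 lower, with median log2 fold changes of 0.26, -0.11 and -0.16. Their most abundant members were miR-143-3p, miR-126a-5p and miR-200b-3p, the one that rose was miR-214-3p, and those that fell were miR-141-3p and miR-200c-3p.

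**Figure D5:**
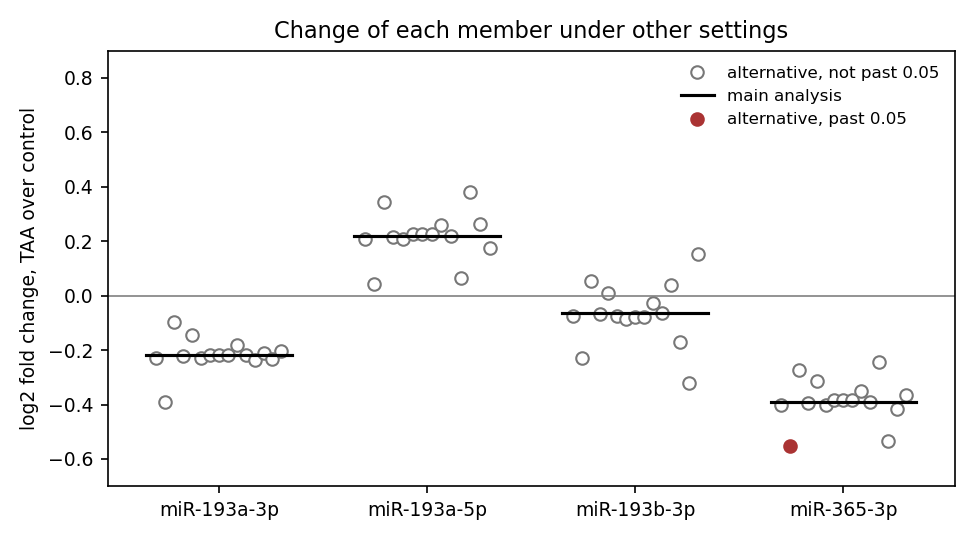
Log2 fold change of each member in TAA-treated over control liver under the alternative settings (circles) and in the main analysis (black line); the filled circle is the setting in which the adjusted p was under 0.05. That circle is miR-365-3p with upper-quartile factors, at -0.55, and the circles of miR-193b-3p lie on both sides of 0, from -0.32 to 0.15.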

How the data were processed

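Small RNA libraries were prepared with a TruSeq kit from miRNeasy total RNA, per the labels' protocols. For each mature miRNA, the authors deposited unnormalized read counts, made with Bowtie, HTSeq and the mm10 build, per the submitters' processing notes, which list no versions of the tools. Reads aligned at several places have a row of their own, at 0 in all 4 files, so how reads of miR-365-3p, identical from both hairpins, or of near-identical paralogs were placed is not known. The 5 summary rows (22.8% to 26.4% of reads outside miRNAs, 7.11% to 8.49% not aligned, at most 0.00143% ambiguous) were left out of totals and tests.

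The main test, run in R 4.3.3, was that of edgeR 4.0.16 (low counts removed by filterByExpr, TMM factors of 0.925 to 1.05, quasi-likelihood F test), adjusted by Benjamini-Hochberg over the 644 miRNAs kept. SE is the log2 fold change over the square root of F. Arm ratios, log2 of counts plus 0.5 with a mean of at least 20 counts per arm, were tested with limma 3.58.1, and DESeq2 1.42.0 was an alternative. Replicates differed beyond sampling noise (chi-square per degree of freedom 237 in control and 324 in TAA). The procedures were tested on simulated data, with changes larger than those of the members. That does not show that changes as small as theirs could be detected. Members and lists were chosen with earlier results of these data known. Named miRNAs are the members, the other arms of their hairpins, sharers of a seed, the 3 nearest profiles of each member, the brown-fat list members past the threshold with its 3 most abundant, and the most abundant of each cell type list. miR-122-5p, miR-208a-3p, miR-455-3p and the cell type list members said to rise or fall were named after their values were seen.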

Additional observations from a re-analysis of the deposited data

How the results depend on the processing

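Each member was refitted under 15 alternatives (14 for miR-193a-5p, which a minimum of 10 CPM in 2 libraries removed). miR-193a-3p stayed negative (-0.39 to -0.10) and miR-193a-5p positive (0.04 to 0.38), and neither passed in any; the smallest adjusted p of miR-193a-3p was 0.0976. miR-365-3p stayed negative and passed only with upper-quartile factors (-0.55). miR-193b-3p turned positive with library size alone (0.052) and with the 10 CPM minimum (0.00996), and spanned -0.32 to 0.15 when each library was left out in turn; the cause was not tested. Over the same omissions the paralog log2 ratio difference ranged from -0.081 to 0.36. The arm ratio of miR-193a did not pass in any of 9 alternatives (0.30 to 0.59, smallest adjusted p = 0.211). The number of miRNAs called went from 107 to 41 with the 10 CPM minimum, which tests 282. It went to 14 (9 higher, 5 lower) with the miRNAs of the imprinted Dlk1-Dio3 locus removed, which leaves 579. That locus holds 65 of the tested miRNAs, so calls outside it were lost too. Whether the list miRNAs said to rise or fall were among those lost is not reported here. With library size alone the median over all tested miRNAs was 0.12. Leaving out a library leaves 1 in its group, which is assumed to vary like the other.

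The libraries share numbers, but no label says that a number pairs them. With a replicate block 110 miRNAs were called and 0 members. Same-numbered deviations correlated at -0.119, and a crossed pairing, added after seeing the data, called 115 miRNAs and 0 members. For miR-193a-5p (117 to 191 counts) and miR-193b-3p (407 to 519), a change of any size within the intervals given remains possible.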
